A study of Homo sapiens with 8 samples.

Results

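Nuclear copies of mitochondrial genes were examined: stretches of mitochondrial DNA (mtDNA) that lie in the chromosomes and carry their own gene names. They were taken as every Ensembl gene in the table of estimated counts whose GENCODE symbol begins with MTND, MTCO, MTCYB, MTATP or MTRNR2L without a hyphen, outside the mitochondrial chromosome, with a total of at least 10 estimated counts over the 8 libraries. Among the 38010 genes listed, 400 had such a symbol, 229 of these had no count in any library, 111 had a total above 0 but under 10, and 60 were kept. The highest total left out was 9.0 counts, the lowest kept was 10.0, and all the genes left out summed to 350.8 counts. The minimum was reached from the parental libraries alone by 25 copies, from the Rho0 libraries alone by 7, from each line by 20, and only from the sum of both by 8. A copy can thus be kept for its counts in 1 line, and counts over the kept copies are a description.

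The libraries are bulk RNA-seq of Ea.hy926, a human line made by fusing umbilical vein endothelial cells with the A549 lung carcinoma line. The parental line (Eahy) gave 4 biological replicates and its derivative without oxidative phosphorylation (Rho0, the usual name for cells depleted of mtDNA) gave 4, all collected at confluence, with no other treatment in the labels. The study asks what loss of respiration changes in such resting cells. Each condition is represented by 1 line, so the loss of respiration and any other difference between the lines cannot be told apart.

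In mitochondria both DNA strands are transcribed from end to end, and the transcripts are processed into ribosomal RNAs, transfer RNAs and mRNAs for subunits of complexes I, III, IV and ATP synthase. Fragments of mtDNA have entered the chromosomes throughout primate evolution. Old insertions have diverged from mtDNA while young ones are nearly identical to it, so that a short read from a mitochondrial transcript can fit a nuclear copy as well. The MTRNR2L genes are copies of the large ribosomal RNA gene MT-RNR2, most of which keep an open reading frame like that of humanin. Humanin is a short peptide studied for its protection of cells against stress. Copies of the mitochondrial protein genes are annotated as pseudogenes.

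Each copy was traced to its mtDNA gene. The 60 copies comprised 13 of MT-RNR2, 9 of MT-CO1, 7 of MT-ND4, 6 of MT-ND1, 4 of MT-CO3, 3 each of MT-ATP6, MT-ND2, MT-ND5 and MT-ND6, 2 each of MT-ATP8, MT-CO2, MT-ND3 and MT-ND4L, and 1 of MT-CYB. GENCODE 29 annotates 11 as protein-coding, all of them MTRNR2L genes, 32 (MTRNR2L2 and MTRNR2L9 among them) as processed and 17 as unprocessed pseudogenes. Copies within 10 kb of each other were taken as 1 insertion, which gave 35 insertions, 9 of them with 2 or more copies. Identity to mtDNA over the aligned part of the annotated transcript ran from 65.1% to 99.2%. As a measure of how far a read could come from either gene, each copy's 31-base words that also occur in the mitochondrial genes were counted. Both strands were searched: 36 copies had at least 1 such word and 24 had none.

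The humanin-like reading frame shows how alike the MT-RNR2 copies are. The mitochondrial frame (GRCh38, chrM:2633-2707, plus strand) is set beside MTRNR2L12 (chr3:96617199-96617273, minus), MTRNR2L8 (chr11:10508152-10508226, minus) and MTRNR2L1 (chr17:22524062-22524136, plus), which had the highest levels, and beside MTRNR2L11 (chr1:237944251-237944326, minus) and MTRNR2L4 (chr16:3371828-3371902, minus), which are less alike. The stretches are those aligned to the mitochondrial frame. The annotated coding sequence of MTRNR2L4 is longer, at 87 bases (chr16:3371816-3371902), so its frame is printed in part. Capitals mark bases that differ from the mitochondrial gene or are inserted, and the sequences are from GENCODE 29 transcripts.
MT-RNR2: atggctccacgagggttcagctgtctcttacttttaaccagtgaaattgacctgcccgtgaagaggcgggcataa
MTRNR2L12: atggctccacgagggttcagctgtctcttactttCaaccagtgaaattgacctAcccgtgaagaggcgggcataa
MTRNR2L8: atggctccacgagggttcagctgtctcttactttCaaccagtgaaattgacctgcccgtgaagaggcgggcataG
MTRNR2L1: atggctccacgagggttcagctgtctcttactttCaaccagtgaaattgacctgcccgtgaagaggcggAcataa
MTRNR2L11: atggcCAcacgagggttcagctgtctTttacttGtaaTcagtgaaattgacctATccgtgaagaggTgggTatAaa
MTRNR2L4: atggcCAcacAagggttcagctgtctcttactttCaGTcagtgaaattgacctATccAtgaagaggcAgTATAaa
MTRNR2L12, MTRNR2L8 and MTRNR2L1 each differed at 2 of 75 positions. MTRNR2L11 differed at 9 positions and had 1 inserted base near its end in this alignment, and MTRNR2L4 differed at 14. The annotated coding sequence of MTRNR2L11 has 75 bases (chr1:237944252-237944326), so its printed stretch runs 1 base past it.

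The copies of protein genes are shown by windows of 90 bases, each placed at the same positions in the mitochondrial gene and its copies. MTATP6P1 (chr1:633896-633985, plus) and MTCO1P12 (chr1:631975-632064, plus) had no difference from MT-ATP6 (chrM:8727-8816) and MT-CO1 (chrM:6804-6893) in their windows, and MTCO1P28 (chr16:3368268-3368357, minus) had 16. MTND5P11 (chr5:134925570-134925659, minus) had 4 against MT-ND5 (chrM:13137-13226), and MTND1P8 (chr16:3370516-3370605, minus) had 14 against MT-ND1 (chrM:3607-3696).
MT-ATP6: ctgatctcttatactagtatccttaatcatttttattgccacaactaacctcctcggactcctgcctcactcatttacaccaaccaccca
MTATP6P1: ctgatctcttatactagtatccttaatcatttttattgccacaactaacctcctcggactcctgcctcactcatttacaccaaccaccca
MT-CO1: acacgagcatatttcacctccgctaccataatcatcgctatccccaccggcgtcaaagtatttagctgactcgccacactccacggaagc
MTCO1P12: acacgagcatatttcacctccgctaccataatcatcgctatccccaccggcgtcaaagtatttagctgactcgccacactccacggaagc
MTCO1P28: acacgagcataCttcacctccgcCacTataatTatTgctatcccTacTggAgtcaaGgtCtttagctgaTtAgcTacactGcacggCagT
MT-ND5: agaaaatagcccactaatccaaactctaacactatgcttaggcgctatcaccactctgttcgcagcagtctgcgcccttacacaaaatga
MTND5P11: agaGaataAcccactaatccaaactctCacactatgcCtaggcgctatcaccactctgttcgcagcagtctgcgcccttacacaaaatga
MT-ND1: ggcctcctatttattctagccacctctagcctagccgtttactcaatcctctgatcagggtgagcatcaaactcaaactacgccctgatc
MTND1P8: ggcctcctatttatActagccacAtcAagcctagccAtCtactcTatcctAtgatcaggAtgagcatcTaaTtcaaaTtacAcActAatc
Where a copy's letters equal those of the mitochondrial gene over a read's length, a read from either gives the same sequence. The longest run shared with mtDNA was 141 bases in MTATP6P1, 77 in MTND5P11, 35 in MTRNR2L4 and 32 in MTND1P8, and MTCO1P28 shared no run of 31. The counts of a copy close to mtDNA are therefore uncertain as a measure of its own transcript.

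The libraries held 11721708 to 37203507 estimated counts. All 13 mRNAs of mtDNA were lower in Rho0, with 16% to 21.4% of counts in the parental libraries and 0.00296% to 0.149% in Rho0. Rho0 replicate 2 stood apart with the 0.149%, since the other Rho0 libraries held at most 0.00756%, and values without it are given below where they differ. Of 12 endothelial markers 11 were above 1 CPM in the parental line and 10 in Rho0, with summed levels of 4522 to 4952 and 4939 to 5233 CPM, in which single markers differed: of the 11 tested, 5 were higher and 3 lower in Rho0. Summed markers of the epithelial fusion partner were 2610 to 2881 and 1297 to 2081 CPM. Summed blood and fibroblast markers stayed at or below 1.85 CPM in every library, and 2 of the 4 blood markers, CD3E and HBB, had no count. CPM is the estimated count per 1000000 counts of the TMM-scaled library size. In bulk RNA fewer cells of a type and less RNA per cell cannot be told apart.

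The copies together took 1.18%, 1.18%, 1.28% and 1.04% of all counts in parental replicates 1 to 4, a mean of 1.17% ± 0.0976 (SD, n = 4). In Rho0 they took 0.000894%, 0.0103%, 0.000978% and 0.000933%, a mean of 0.00328% ± 0.0047 (SD, n = 4), and 0.000935% without replicate 2. Every parental library was above every Rho0 library, and the high Rho0 library for the copies was also the high one for the mRNAs of mtDNA. MTATP6P1 and MTRNR2L12, the 2 copies with the most counts, held 82.8% to 85.6% of the copies' counts in the parental libraries. In Rho0 they held 31.4%, 79.0%, 35.5% and 16.4%, so that replicate 2 alone had a makeup near the parental one. Between 54 and 57 copies had at least 1 count in a parental library and between 35 and 42 in a Rho0 library.

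Over the whole table edgeR's quasi-likelihood test with Benjamini-Hochberg adjustment was run on 15184 genes, of which 25.4% were lower and 29.0% higher in Rho0 at an adjusted p of 0.05. Of the 60 copies 20 had enough counts to be tested, 19 fell and 0 rose, while the other 40 were too low. A copy can pass the filter by its counts in 1 line, as 3 copies without a Rho0 count did. Among the 19, only MTATP6P1 and MTRNR2L12 had enough counts in the Rho0 libraries to pass by them. The others passed by the parental libraries alone, and MTCO1P28 passed by the Rho0 libraries alone. Being tested thus went with the direction for most copies, and the 19 of 20 are a description. At an unadjusted p under 0.05, 1 copy was higher, MTCO1P28, and at an adjusted p of 0.05 the DESeq2 Wald test and limma-voom each called 0 copies higher (0 and 1 at an unadjusted p under 0.05, the 1 being MTCO1P28). The median log2 fold change of the 20 was -9.30, or -7.84 with the 3 copies that had no Rho0 count set at their bound, against 0.05 for all genes tested. Without Rho0 replicate 2 it was -10.77, or -8.63 with the 4 copies then lacking Rho0 counts at their bound. With no filter all 60 were tested, and 34 were lower and 0 higher, where 14.5% and 17.7% of 26141 genes were called. In that fit 2 copies were higher at an unadjusted p under 0.05, MTCO1P28 and MTND1P8, and 44 of 60 were fitted below 0. Every parental library lay above every Rho0 library for 32 copies, and that held for 19.9% of genes with a total of 10 or more.

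**Figure D1:**
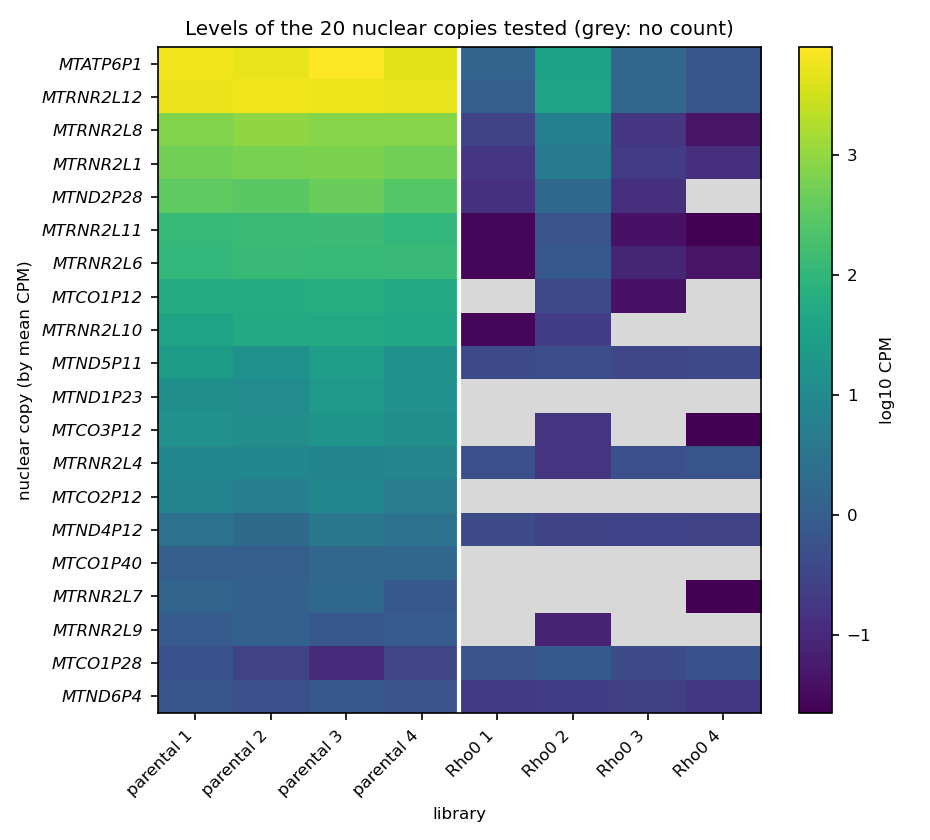
Heat map of the 20 tested copies (rows, ordered by mean level) in the 8 libraries (columns), coloured by log10 CPM, with grey for no count. The parental columns run from 7870 CPM for MTATP6P1 down to 0.103 CPM for MTCO1P28, and within Rho0 the second replicate is the brightest for the top rows.

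The insertion most like mtDNA, on chromosome 1, held most of the signal of the pseudogenes. Its 7 copies lie at chr1:629062-634922 (GRCh38, plus strand), in the order MTND1P23, MTND2P28, MTCO1P12, MTCO2P12, MTATP8P1, MTATP6P1 and MTCO3P12, which is that of the mitochondrial genes, and were 97.6% to 99.2% identical to mtDNA. They sit inside AL669831.3, which is annotated on the other strand. Their summed level was 6323 ± 1527 CPM (SD, n = 4) in the parental line and 9.92 ± 17.2 CPM (SD, n = 4) in Rho0, or 1.31 ± 0.548 CPM (SD, n = 3) without Rho0 replicate 2. Of the 7, 6 were tested and all 6 fell, where 25.4% of all genes tested were lower. Of those tested, all but MTATP6P1 passed the filter by their parental counts alone.

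MTATP6P1, the copy of the ATP synthase subunit gene MT-ATP6, had the highest level per length of all copies, 8658 CPM per kb in the parental mean, and was at 5965, 5243, 7870 and 4506 CPM in the parental libraries. In Rho0 replicates 1 to 4 it was at 1.43, 33.6, 1.5 and 0.653 CPM. The groups did not overlap, and Rho0 replicate 2 was 23.5 times the median of the others. The log2 fold change was -9.44 ± 1.33 (SE; edgeR adjusted p = 1.5e-04) with all libraries and -12.35 without Rho0 replicate 2.

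MTND2P28, from the complex I gene MT-ND2, was at 327, 298, 433 and 270 CPM in the parental libraries and at 0.140, 1.66, 0.129 and 0 CPM in Rho0. Its log2 fold change was -10.24 ± 0.54 (SE; edgeR adjusted p = 9.6e-08), -12.00 without Rho0 replicate 2 and -9.60 without Rho0 replicate 4, which had no count. MTCO1P12, from the complex IV gene MT-CO1, was at 60.2, 61.0, 64 and 52.3 CPM against 0, 0.376, 0.0428 and 0 CPM. Rho0 replicate 2 was again the highest Rho0 library for both, and all parental values exceeded it. The fall of MTCO1P12 was 10.02 on the log2 scale, and it was -9.39 without Rho0 replicate 4. Without Rho0 replicate 2, 1 Rho0 count was left and the ratio was 6136 (exact 95% interval 1101 to 242380).

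The 4 shorter copies of that insertion had few or no counts in Rho0. MTND1P23 was at 13.1, 10.6, 21.6 and 14.1 CPM in the parental libraries and had no count in any Rho0 library, which made it at least 117-fold lower against a floor of 3 counts in each library. MTCO2P12 had 4.88 to 7.73 CPM against no count and was at least 48.9-fold lower. MTCO3P12 had 12.1 to 16.5 CPM in the parental libraries and 3 counts in all of Rho0, a ratio of 533 (exact 95% interval 182 to 2589, counting error only). Of those 3 counts 2 were in Rho0 replicate 2, and without it the ratio was 1417 (254 to 56031). MTATP8P1 was too low to be tested, with 37 counts in the parental libraries and none in Rho0.

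**Figure D2:**
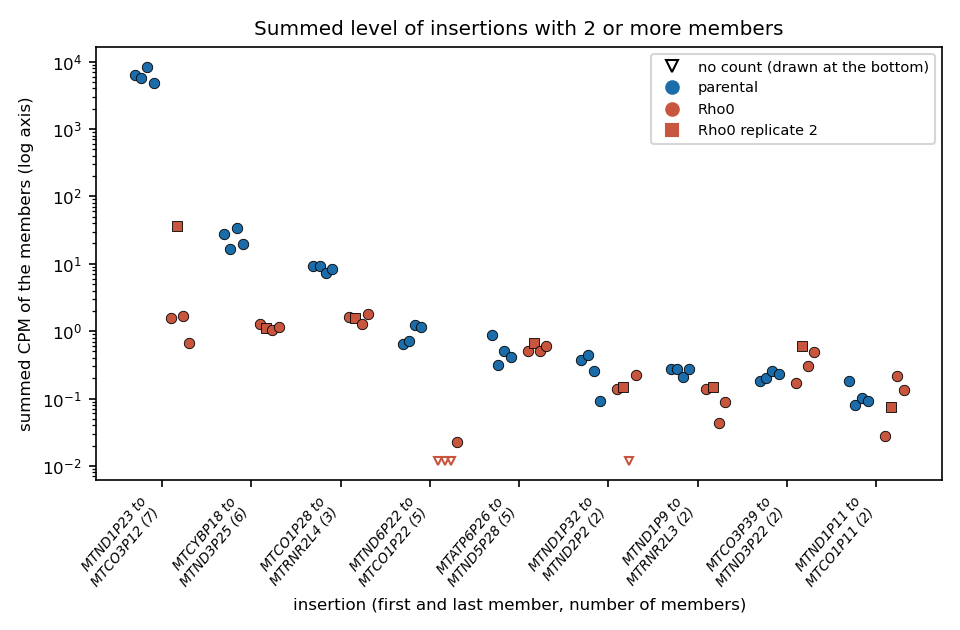
Summed CPM (log axis) of the copies in each of the 9 insertions with 2 or more copies, one point per library, with triangles at the bottom for libraries without a count. The chromosome 1 insertion spans from 8414 CPM to 0.676 CPM, while the insertion from MTATP6P26 to MTND5P28 shows overlapping groups.

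The MTRNR2L family held 13 of the 60 copies on different chromosomes or sites, and 11 of them have an annotated reading frame. Of the 13, 9 were tested and all 9 fell, where 25.4% of all genes tested were lower. Of those tested, all but MTRNR2L12 passed the filter by their parental counts alone. MTRNR2L12, on chromosome 3, was at 5295, 5840, 5765 and 4838 CPM in the parental libraries and at 1.09, 38.5, 1.5 and 0.631 CPM in Rho0. Its parental values differed little from each other, with a coefficient of variation of 8.56% against 24.5% for MTATP6P1. The log2 fold change was -9.16 ± 1.38 (SE; edgeR adjusted p = 2.5e-04), or -12.40 without Rho0 replicate 2.

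MTRNR2L8, on chromosome 11, was at 711, 948, 772 and 770 CPM against 0.308, 5.65, 0.171 and 0.0450 CPM. MTRNR2L1, on chromosome 17, was at 530, 604, 621 and 509 CPM against 0.168, 4.52, 0.214 and 0.135 CPM. For both, every parental library was above every Rho0 library, and replicate 2 was the highest Rho0 library. Their log2 fold changes were -9.78 and -9.58, and -12.22 and -11.73 without that library.

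MTRNR2L11, MTRNR2L6 and MTRNR2L10 were at 107 to 140, 106 to 128 and 38.9 to 54.3 CPM in the parental libraries. In Rho0 they had 11, 15 and 4 counts in all, with 0.602, 0.753 and 0.226 CPM in replicate 2 and at most 0.0857 CPM elsewhere. Their log2 fold changes were -10.27, -9.75 and -10.20, and leaving out Rho0 replicate 4 gave -9.57 for MTRNR2L10. Without Rho0 replicate 2, 3, 5 and 1 Rho0 counts were left, at ratios of 4285 (exact 95% interval 1466 to 20782), 2431 (1041 to 7489) and 4813 (863 to 190160). Their identity to mtDNA was 79.97%, 85.0% and 80.5%, and 1.05%, 4.45% and 3.47% of their 31-base words occur in it.

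MTRNR2L4, on chromosome 16, fell less: it was at 8.48, 8.78, 7.11 and 7.67 CPM in the parental libraries and at 0.505, 0.151, 0.514 and 0.631 CPM in Rho0. Rho0 replicate 2 was here the lowest library, at 0.293 of the median of the others, from 2.5 estimated counts. The log2 fold change was -3.99 ± 0.22 (SE; edgeR adjusted p = 1.4e-07). MTRNR2L7 (106 parental counts) and MTRNR2L9 (82 parental counts) had 1 count each in Rho0, so that the ratios were 141 (exact 95% interval 24.7 to 5609) and 109 (19.0 to 4351). The count of MTRNR2L7 lay in Rho0 replicate 4 and that of MTRNR2L9 in Rho0 replicate 2, and without that library they were at least 8.35-fold and 9.82-fold lower.

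The 4 other family members were too low for the filtered test. With no filter MTRNR2L13, MTRNR2L5 and MTRNR2L2 were called lower and MTRNR2L3 was not (edgeR adjusted p = 2.1e-04, 0.0015, 0.0023 and 0.199). MTRNR2L13 had 26 counts in the parental libraries and MTRNR2L5 had 15, both with none in Rho0, which made them at least 2.32-fold and 1.35-fold lower. MTRNR2L2 had 23 counts against 1, a ratio of 30.5 (exact 95% interval 4.96 to 1258). MTRNR2L3 had 13 counts against 6, with overlapping groups.

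**Figure D3:**
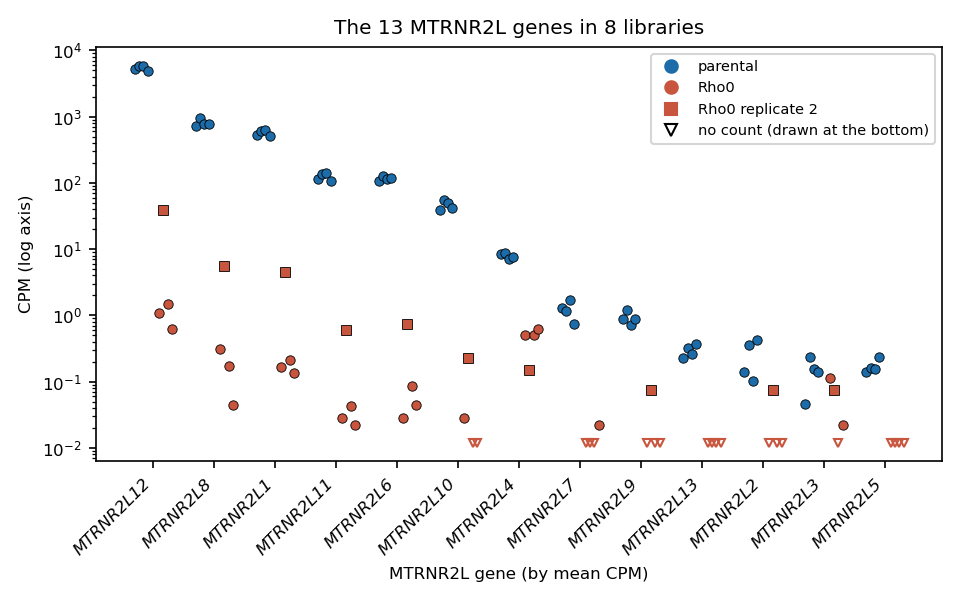
CPM (log axis) of the 13 MTRNR2L genes in 8 libraries, one point per library, squares for Rho0 replicate 2 and triangles at the bottom for no count. For the 6 highest genes the square lies above the other Rho0 points, whereas for MTRNR2L4 it lies below them at 0.151 CPM.

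An insertion on chromosome 5 kept part of its counts in Rho0. Its 6 copies lie at chr5:134923303-134928527 (GRCh38): MTCYBP18, MTND6P4, MTND5P11, MTND4P12, MTND4LP30 and MTND3P25, which were 89.6% to 95.8% identical to mtDNA. They lie inside PCBD2, on its other strand except MTND6P4. The summed level was 24.6 ± 7.93 CPM (SD, n = 4) in the parental line and 1.15 ± 0.0968 CPM (SD, n = 4) in Rho0, with no excess in Rho0 replicate 2. PCBD2 itself was at 7.84 ± 0.554 and 8.13 ± 1.15 CPM (SD, n = 4) and was not called (edgeR adjusted p = 0.750).

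MTND5P11, from the complex I gene MT-ND5, was at 23.3, 13.6, 29.1 and 15.4 CPM in the parental libraries and at 0.392, 0.452, 0.343 and 0.383 CPM in Rho0. The Rho0 values lay close together and far below every parental one. The log2 fold change was -5.70 ± 0.31 (SE; edgeR adjusted p = 1.2e-07). MTND4P12, from the complex I gene MT-ND4, was at 2.71, 1.83, 3.71 and 2.79 CPM against 0.421, 0.301, 0.300 and 0.270 CPM, with a log2 fold change of -3.05 ± 0.28 (SE; edgeR adjusted p = 5.8e-06). MTND6P4, from MT-ND6, was at 0.688, 0.516, 0.773 and 0.604 CPM against 0.196, 0.226, 0.257 and 0.180 CPM, with a log2 fold change of -1.60 ± 0.27 (SE; edgeR adjusted p = 5.8e-04). In none of the 3 did the groups overlap. MTND4P12, MTND6P4, MTND1P8, MTCO2P12, MTATP8P1, MTCYBP18 and MTCO1P40 were chosen for mention after their values were seen.

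The insertion on chromosome 16 held copies with unlike differences between the lines. MTCO1P28, MTND1P8 and MTRNR2L4 lie at chr16:3367719-3372740 (GRCh38) on the minus strand and were 75.7% to 79.6% identical to mtDNA. While MTRNR2L4 fell, MTCO1P28 was at 0.550, 0.278, 0.103 and 0.325 CPM in the parental libraries and at 0.589, 0.828, 0.428 and 0.563 CPM in Rho0. The groups overlapped, and the log2 fold change of 0.87 ± 0.39 (SE; edgeR adjusted p = 0.084) did not pass. MTND1P8 was at 0.367, 0.278, 0.206 and 0.325 CPM against 0.533, 0.602, 0.343 and 0.631 CPM, from 26 and 63 counts, and was too low to be tested. Its Rho0 libraries were above the parental ones except replicate 3, which lay below parental replicate 1. Without parental replicate 1 both were called higher, with log2 fold changes of 1.26 for MTCO1P28 (edgeR adjusted p = 0.027) and 0.95 for MTND1P8 (edgeR adjusted p = 0.045), and MTND1P8 was also called without Rho0 replicate 3 (0.96; edgeR adjusted p = 0.023). MTND1P8 did not pass without parental replicates 2, 3 or 4 (edgeR adjusted p = 0.091, 0.097 and 0.065) or with no filter (edgeR adjusted p = 0.086), and MTCO1P28 did not pass with any library other than parental replicate 1 left out.

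The remaining insertions were low. The 5 copies at chr5:100046450-100055045, with an identity of 85.7% to 91.3%, summed to 14, 18.5, 24 and 25.1 counts in the parental libraries and to 0, 0, 0 and 1 in Rho0. By contrast the 5 copies at chr2:120211054-120217279, with an identity of 72.1% to 76.6%, summed to 19, 8, 10 and 9 counts against 18, 9, 12 and 27. Per effective library size these last were 0.531 ± 0.241 and 0.576 ± 0.0822 CPM (SD, n = 4), which overlap. Copies alone in their insertion included MTCO1P40 on chromosome 17, at 1.07 to 1.53 CPM in the parental libraries and without a count in Rho0, at least 10.3-fold lower.

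Likeness to mtDNA was set beside the difference between the lines as a description. For each copy the counts of the 4 libraries of a line were pooled per effective library size, with 0.5 added, and the direction was read from the ratio. The minimum of 10 counts can fix that direction where 1 line alone reached it, so the 20 copies that reached it in each line are given first. Of these, 10 had an identity of 80% or more and all 10 were lower in Rho0, by -1.61 to -10.29 on the log2 scale. Both MTRNR2L genes among them with an identity under 80%, MTRNR2L11 and MTRNR2L4, were lower as well. Of the 8 others under 80%, 6 were higher and 2 lower in Rho0, within -0.48 to 1.09.

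Among the other 40 copies, 18 with an identity of 80% or more, 4 MTRNR2L genes under 80% and 3 other copies under 80% reached the minimum in the parental line alone, and 7 reached it in Rho0 alone, all 7 under 80%. The remaining 8 reached it only in the sum of both lines. The directions of these 40 are not read. In 17 of the 60 copies both lines were at or under the floor of 3 counts per library, and no fold is given for them. The bound at 80% and the setting apart of the MTRNR2L genes under it were chosen after the values were seen. Depth limits the less alike copies, since of the 24 under 80% outside the MTRNR2L family 1 was tested, MTCO1P28.

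Shared 31-base words were read in the same way. Of the 20 copies that reached the minimum in each line, 13 had at least 1 word in mtDNA, of which 12 were lower and 1, MTND1P8, was higher in Rho0, and 7 had none, of which 5 were higher and 2 lower. By the test, 18 copies with a shared word and 2 without one had enough counts. MTRNR2L9, without a shared word over its annotated 75 bases, fell, and MTCO1P28 was not called. Identity, word sharing and level were not separated over these copies, and their parts in the difference were not tested. A high identity did not always come with a high level. In the parental mean MTATP8P1, at 97.6% identity, was at 0.434 CPM, and MTRNR2L11, at 79.97%, was at 124 CPM.

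**Figure D4:**
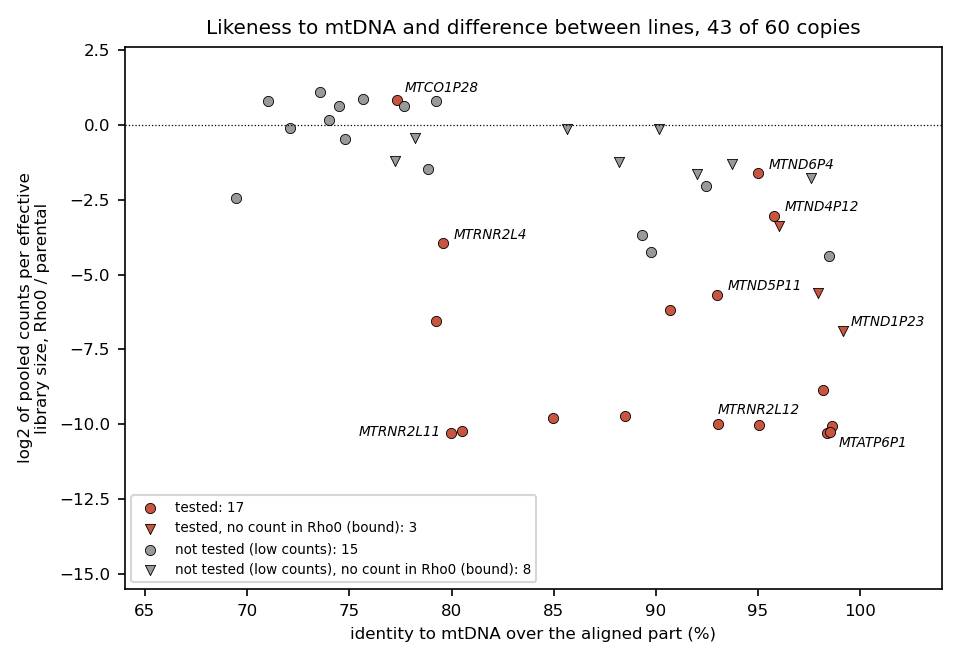
Log2 ratio of pooled counts, Rho0 over parental, against identity to mtDNA (%) for the 43 copies above the floor in at least 1 line; circles are ratios, triangles are bounds for copies without a Rho0 count, and colour shows whether the copy was tested. Points at 80% identity or more lie below 0, and points above 0 lie under 80%; the minimum count fixes the direction of some low copies.

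The level of a copy was then set against its mtDNA counterpart within each library, per kb of transcript for copies of the mRNAs. For the MTRNR2L genes the counterpart was the sum of the 13 mRNAs of mtDNA, because MT-RNR2 was not among the genes listed. Whether reads from MT-RNR2 were counted for the MTRNR2L genes was not tested. Their percents are shares of counts without scaling by length, so their heights are not comparable with those of the other copies. MTATP6P1 stood at 36.1%, 33.3%, 37.4% and 33.6% of MT-ATP6 in the parental libraries and at 41.6%, 33.1%, 29.3% and 28.6% in Rho0. MTRNR2L12 stood at 2.57%, 2.85%, 2.16% and 2.78% of the mRNAs of mtDNA and at 2.81%, 2.93%, 2.30% and 2.58% in Rho0. For both, the ranges overlapped although the fitted levels differed 697-fold and 570-fold. MTRNR2L1 was higher relative to the mRNAs of mtDNA in Rho0, at 0.232% to 0.295% against 0.325% to 0.545%, with no overlap.

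MTND5P11 did not keep its ratio: it stood at 0.154%, 0.0941%, 0.158% and 0.130% of MT-ND5 in the parental libraries and at 17.3%, 0.486%, 6.56% and 30.9% in Rho0. MTND4P12 went from 0.00515% to 0.00994% of MT-ND4 up to 0.138% to 6.64%. MTND1P8 went from 0.00219% to 0.00565% of MT-ND1 up to 1.32% to 61.3%. For each of the 3, the parental and Rho0 ranges did not overlap and Rho0 replicate 2 had the lowest Rho0 ratio. Summed over all copies, there were 6.42, 6.54, 5.96 and 6.47 counts per 100 counts of the mRNAs of mtDNA in the parental libraries, and 20.7, 6.94, 12.9 and 31.5 in Rho0.

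**Figure D5:**
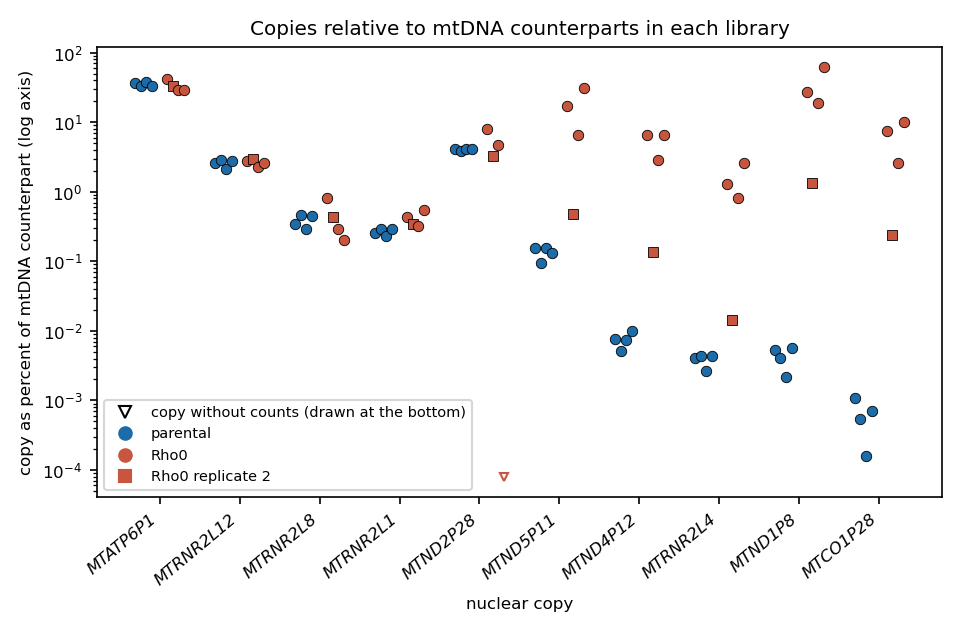
Level of 10 copies as a percent of their mtDNA counterpart (log axis) in each library, squares marking Rho0 replicate 2 and the triangle a copy without counts. Percents are per kb except for the MTRNR2L genes, where they are of counts without scaling by length. MTATP6P1 and MTRNR2L12 sit at the same height in both lines, and MTND5P11, MTND4P12, MTRNR2L4, MTND1P8 and MTCO1P28 sit higher in every Rho0 library, with the square lowest.

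Rho0 replicate 2 gives a further contrast among the copies. The 13 mRNAs of mtDNA were 21.8 to 43.5 times as high there as at the median of the other Rho0 libraries. The corresponding ratio was 23.5 for MTATP6P1, 35.2 for MTRNR2L12, 32.9 for MTRNR2L8, 26.9 for MTRNR2L1, 21.5 for MTRNR2L11, 16.7 for MTRNR2L6 and 12.9 for MTND2P28. It was 1.18 for MTND5P11, 1.0 for MTND4P12, 1.15 for MTND6P4, 1.47 for MTCO1P28, 1.13 for MTND1P8 and 0.293 for MTRNR2L4. In that library these had only 6, 4, 3, 11, 8 and 2.5 estimated counts, so their ratios carry a large counting error. Some of the high ratios rest on few counts as well. In Rho0 replicates 1 to 4 MTRNR2L11 had 1, 8, 1 and 1 counts and MTRNR2L6 had 1, 9.9, 2.3 and 2. MTND2P28 had 5, 22.3, 3.1 and 0. Among the 7 copies listed as high in that library, ratios to mtDNA overlapped between the lines in all but MTRNR2L1. Among the 6 others listed they did not overlap in any. The 7 and the 6 were grouped after the values were seen, and both readings use the same Rho0 counts. The split does not hold for all copies: MTND3P22 and MTND1P10, at 1.91 and 0 times the others there, had few counts and overlapping ratios. The source of the mitochondrial counts in that library was not tested.

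Other pseudogenes were read from the same test. Of 817 tested pseudogenes that are not copies of mtDNA, 102 (12.5%) fell and 186 (22.8%) rose, and their median was 0.15 on the log2 scale. Pseudogenes of nuclear genes for respiratory chain subunits were few: 6 of the 168 listed were tested, with 2 higher, 2 lower and a median of 0.09. The median log2 fold change of the 13 mRNAs of mtDNA was -9.25, beside the -9.30 of the tested copies, and without Rho0 replicate 2 they were -12.25 and -10.77. The medians of the copies include fitted values for copies without a Rho0 count. With those at their bound they were -7.84 with all libraries and -8.63 without Rho0 replicate 2.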

How the data were processed

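Bulk RNA-seq was measured in 4 parental and 4 Rho0 libraries. Per the labels' protocols, the kit selected RNA with a poly-A tail and kept strand information. The authors deposited a table of estimated counts and a normalized table on a log2 scale with 12885 genes. Tools listed without versions in the submitters' processing notes are kallisto, edgeR and limma, with the build GRCh38. The annotation release and the use of strand in counting are not given in the sources used here. Replicates are called biological in the labels, without mention of separate cultures, so p-values measure the spread between these libraries.

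These counts, rounded to whole numbers, were scaled by TMM, filtered by filterByExpr (minimum count 10) and tested for the line with the quasi-likelihood F-test of edgeR 4.0.16 under R 4.3.3. Calls were made at 0.05 after Benjamini-Hochberg adjustment across all 15184 genes that passed. The standard error is the log2 fold change divided by the square root of F. A group without counts was set at 3 counts per library (mean 0.127 CPM in Rho0). Bounds and exact 95% intervals cover counting error only. The biological coefficient of variation was 13.7%. Counts simulated for this comparison (14875 genes) gave back 64% of changes of 1.5-fold, 70.8% of 2-fold, 95.9% of 4-fold and 100% of 8-fold, and 14 of 177 calls were false. No libraries agreed within sampling noise (lowest chi-square per degree of freedom 4.21).

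Identity came from blastn 2.17.0 of GENCODE 29 transcripts against mtDNA joined from its 37 annotated genes (15357 bases, 666 between genes missing). Sequences were found for all 60 copies. Named copies are the 12 with the highest mean CPM, copies called higher, the 3 highest of those tested and not called, and all MTRNR2L genes. Others are identified where they appear. The copies and lists were chosen with earlier results of these data known. Alternatives were DESeq2 1.42.0 size factors and its Wald test, a replicate block, library size alone, scaling without mtDNA genes and copies, testing without a filter or with at least 50 counts in 4 libraries, limma-voom, limma-trend (limma 3.58.1) on the log2 values, leaving out each library, and words of 25 bases. Python 3.11.15, pandas 2.3.3 and matplotlib 3.10.9 served for summaries and plots.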

Additional observations from a re-analysis of the deposited data

Results flagged for a closer look

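Within the 4 Rho0 libraries, 1 library lay far from the other 3 for 13 of the named copies, its gap to the nearest library exceeding Dixon's 95% critical value of 0.829. Chance gives about 1 such case in 20 groups, and 40 groups were examined. That rate is for independent groups of measured values. It does not hold for copies that are high together in 1 library, or for a single count against none. In 12 of the 13 the library was Rho0 replicate 2. There the CPM was 33.58 for MTATP6P1, 38.47 for MTRNR2L12, 5.646 for MTRNR2L8, 4.517 for MTRNR2L1 and 1.656 for MTND2P28. It was 0.6023 for MTRNR2L11, 0.7528 for MTRNR2L6, 0.3764 for MTCO1P12, 0.2258 for MTRNR2L10 and 0.1506 for MTCO3P12. MTRNR2L9 and MTRNR2L2 were both at 0.07528 CPM there, which is 1 count, with none in the other Rho0 libraries. The remaining case was MTRNR2L7 in Rho0 replicate 4, at 0.02252 CPM, also a single count. The share of counts of all copies (0.01033%) and that of the 13 mRNAs of mtDNA (0.1488%) stood apart in Rho0 replicate 2 as well.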

How the results depend on the processing

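The count of 19 lower copies was the same with DESeq2 size factors, library size alone, scaling without mtDNA genes and copies, the DESeq2 Wald test and limma-voom. It was 34 with no filter, where all 60 were tested, 14 with at least 50 counts in 4 libraries, and 7 on the deposited log2 table, which holds 7 of the copies. Leaving out 1 library gave 19 to 20 lower and 0 to 2 higher: without parental replicate 1 MTCO1P28 and MTND1P8 were higher, and without Rho0 replicate 3 MTND1P8. Library size alone gave 1 higher, MTCO1P28, at a log2 fold change of 1.25. That scaling moved the median of all genes from 0.05 to 0.44 on the log2 scale, with 84.8% of calls higher in place of 53.3%. MTCO1P28 ranged from 0.60 to 1.26 over its alternatives, with adjusted p from 0.019 to 0.182. None of the 16 named copies that were tested changed direction under these alternatives, but the size of the log2 fold change moved. It moved most for MTRNR2L7 (-7.80 to -1.15), MTRNR2L10 (-11.68 to -5.51) and MTRNR2L6 (-11.13 to -6.65). MTRNR2L2, MTRNR2L3, MTRNR2L5 and MTRNR2L13 did not pass the filter and were followed with no filter only. Leaving out 1 library moved the copies' share of counts between 1.13% and 1.21% in the parental line and between 0.000935% and 0.00408% in Rho0. With words of 25 bases 39 copies shared one with mtDNA in place of 36. Same-numbered libraries of the lines showed no visible shared deviation (correlations of -0.135, 0.0366, 0.00185 and 0.155). Other pairs of libraries ran from -0.247 to 0.195. With so few libraries these values cannot exclude a pairing by number. With the replicate block 19 copies were lower and 0 higher. Depth limits the 40 copies whose counts did not pass the filter.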
